A study of Rattus norvegicus with 9 samples.

Results

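The genes described here carry out DNA replication and the S phase of the cell cycle. They were chosen by name: 43 genes were listed, from origin licensing to the G1/S regulators, and 42 of them had 1 row each among the 32883 genes of the expression table, while E2f1 was not analysed here. The measurement was mRNA sequencing of liver tissue from 9 male Sprague-Dawley rats, with 3 rats and 3 libraries in each of 3 groups. The normal control rats were N1, N3 and N12. The DEN model rats M13, M17 and M24 belonged to a group given diethylnitrosamine (DEN), an alkylating liver carcinogen that produces fibrosis and then hepatocellular carcinoma. It was injected intraperitoneally each week at 0.01% in a course of 16 weeks. The PZH administration rats G27, G28 and G42 received the same DEN course and Pien Tze Huang (PZH), a traditional Chinese medicine preparation. The PZH dose and the week of collection of each rat were not given in the labels. The study collected rats at several weeks of the course, and a rat taken before the last had a shorter one. The deposited treatment tag names PZH for the M rats as well, so membership was read from the letter that opens each rat's name, which gives the 3 groups of 3 rats that the study describes. Each library was made from tissue of 1 rat, in which fewer cells of a type and less RNA per cell cannot be told apart.

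Total counts ranged from 14922973 in G42 to 27161496 in G27. The scaling factors of the trimmed mean of M-values (TMM) method were 0.731 to 0.799 in normal rats, 1.21 to 1.58 in DEN rats and 0.863 to 0.941 in PZH rats, so scaling mattered: with library totals instead of TMM the median over all genes of the log2 fold change moved from 0.03 to 0.89 for DEN against normal, from 0.01 to -0.67 for PZH against DEN and from -0.02 to 0.21 for PZH against normal. Levels below are CPM, counts scaled to a common library size on the TMM scale, and fold changes are relative to it. At these depths 3 counts were worth 0.125 to 0.252 CPM. Liver identity was checked with 6 hepatocyte genes (Alb, Ttr, Apoa1, Tf, Hnf4a, Cps1), none of which was at 0 in any rat, with a summed level of 139600 to 151080 CPM in normal, 29374 to 65529 CPM in DEN and 118460 to 152770 CPM in PZH rats. Most of the sum was Alb and Tf, at 101870 and 34458 of 150440 CPM in N1. At an adjusted p under 0.05 in the edgeR test used below, 3 of the 6 were lower in DEN than normal rats. In PZH against DEN rats 2 of the 6 were higher. Over all genes 20.5% and 8.72% were.

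Replication starts when the origin recognition complex, Cdc6 and Cdt1 load the MCM2-7 helicase onto DNA in G1, a step called licensing. At the G1/S boundary Cdc45, the GINS complex and Mcm10 join and activate the helicase, after which polymerase alpha with primase starts each strand and polymerases delta and epsilon extend it on the PCNA clamp. Most of these genes are transcribed periodically under E2F factors, and adult hepatocytes are largely quiescent but can re-enter the cycle after injury.

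The helicase genes carried much of what follows, and the promoter sequences of those 5 that held an E2F-type match are shown because E2F is the family known to act on this programme. They come from RefSeq on rat assembly GRCr8, run 5′ to 3′ on the strand of the gene from 240 bases before to 2 bases after the annotated start, and bear E2F-type matches in capitals. Overlapping matches on both strands appear as 1 longer run of capitals. The windows are chr4:122918093-122918334 on the minus strand for Mcm2, chr9:30733745-30733986 on the minus strand for Mcm3, chr19:13488573-13488814 on the plus strand for Mcm5, chr13:42404351-42404592 on the minus strand for Mcm6 and chr12:22163177-22163418 on the minus strand for Mcm7.
Mcm2: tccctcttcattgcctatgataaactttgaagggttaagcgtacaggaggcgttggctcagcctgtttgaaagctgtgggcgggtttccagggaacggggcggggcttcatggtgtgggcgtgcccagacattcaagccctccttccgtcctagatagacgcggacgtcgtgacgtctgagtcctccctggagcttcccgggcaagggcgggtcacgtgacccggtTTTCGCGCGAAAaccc
Mcm3: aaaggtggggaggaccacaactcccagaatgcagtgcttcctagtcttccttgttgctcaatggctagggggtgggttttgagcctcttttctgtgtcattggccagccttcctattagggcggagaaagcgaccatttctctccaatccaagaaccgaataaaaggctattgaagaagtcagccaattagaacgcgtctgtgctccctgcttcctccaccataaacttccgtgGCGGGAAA
Mcm5: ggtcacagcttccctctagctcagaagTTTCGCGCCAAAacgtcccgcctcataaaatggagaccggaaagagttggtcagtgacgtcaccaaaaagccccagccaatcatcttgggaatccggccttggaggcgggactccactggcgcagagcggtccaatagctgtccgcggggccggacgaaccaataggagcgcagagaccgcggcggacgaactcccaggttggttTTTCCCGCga
Mcm6: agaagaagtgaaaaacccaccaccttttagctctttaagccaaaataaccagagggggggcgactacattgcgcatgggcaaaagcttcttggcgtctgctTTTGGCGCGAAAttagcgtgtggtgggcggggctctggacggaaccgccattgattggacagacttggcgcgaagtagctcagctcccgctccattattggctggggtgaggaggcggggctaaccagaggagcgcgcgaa
Mcm7: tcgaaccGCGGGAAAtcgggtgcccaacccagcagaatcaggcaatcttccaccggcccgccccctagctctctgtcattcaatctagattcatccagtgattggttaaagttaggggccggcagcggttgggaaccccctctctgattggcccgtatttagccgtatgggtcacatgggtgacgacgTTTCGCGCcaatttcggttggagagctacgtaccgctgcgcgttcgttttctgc

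The letters searched were TTTCCCGC, TTTGGCGC, TTTCGCGC and TTTGCCGC on either strand, in windows from 250 bases before to 50 bases after the start. In Mcm2 the match on the strand of the gene began at base -14 and the one on the opposite strand at base -10, so the 2 overlapped. Mcm6 held a pair of the same kind at -139 and -135, and Mcm5 one at -213 and -209 besides a single match at -8. Mcm3 had matches at -6 and at 14, the latter outside the stretch shown, and Mcm7 at -233 and -52. Promoter windows were matched by symbol for 35 of the 43 genes, taking the first listed start of each. Those not matched were Mcm4, Orc1, Ccne2, E2f8, E2f2, E2f1, Rrm2 and Cdc6.

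Of the 35 matched promoters, 16 (45.7%) held an E2F-type match, while 2.25% of the 27457 promoters of the table did. The 16 were those of Cdt1, Dnmt1, Gins1, Gmnn, Lig1, Mcm2, Mcm3, Mcm5, Mcm6, Mcm7, Pola1, Pole, Pole2, Rfc3, Rpa2 and Tyms. CCAAT, the letters of the NF-Y box, stood in 22 of the 35 (62.9%) and in 37.7% of all promoters. GGGCGG, the Sp1 box, was also in 22 (62.9%), with 34.9% over all promoters. TTTGAA, the cell cycle homology region of G2/M genes, was in 2 (5.71%), Mcm2 and Pole2, and in 18.1% of all. A match of this kind describes the letters in the window and is not a measured binding site. For DEN against normal the log2 fold change had a median of 1.51 in the 16 genes with an E2F-type match (0.23 to 3.24) and of 1.3 in the 19 without (-2.13 to 3.60). Of the 16, 13 were called higher, and of the 19, 17 were called higher and 1 lower. Over all genes 25.3% were called higher and 20.5% lower. Both sets held genes that passed the filter on low counts only through the DEN rats, which favoured higher values there. These were Cdt1, Gins1, Gmnn and Pole2 in the first and Orc6, Cdc45, Chaf1a, Chaf1b, Uhrf1 and Ccne1 in the second. Medians without them are not given. For PZH against DEN the median was -0.65 in both sets, with a range of -1.69 to -0.31 and 6 of 16 called lower in the first and of -2.94 to 1.32 with 4 of 19 called lower and 1 higher in the second. Over all genes 10.3% were called lower and 8.72% higher. Pole2 in the first set and Cdc45 and Chaf1b in the second passed the filter only through the DEN rats here. The difference between the sets was not tested.

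Livers of DEN rats held more mRNA of most replication genes than livers of normal rats. Of the 42 genes, 37 were higher at an adjusted p under 0.05 (quasi-likelihood test in edgeR, p-values adjusted by Benjamini-Hochberg across 14255 tested genes), and 1, Mcm10, was lower. Over all genes tested, 25.3% were called higher and 20.5% lower. Their log2 fold changes had a median of 1.64, against 0.03 for all genes, and ranged from -2.13 for Mcm10 to 4.72 for the transcriptional repressor E2f8. Pola1, Pole, Rfc5 and Lig1 were not called. In 38 of the 42 genes every DEN rat lay above every normal rat, which was so for 31.4% of all genes. At the thresholds of the study, more than 2 log2 units in size and an unadjusted p under 0.001, 9 genes were higher, namely Cdc6, Mcm3, Mcm5, Mcm6, Cdc45, Gins1, Rrm2, Uhrf1 and E2f8, beside 8.81% of all genes. The filter on low counts let 14 of the 42 through only because of the DEN rats, and so favoured higher values in those rats. These were Orc1, Orc6, Cdc6, Cdt1, Gmnn, Cdc45, Gins1, Pole2, Rrm2, Chaf1a, Chaf1b, Uhrf1, Ccne1 and E2f8. Of the other 28 genes 23 were called higher, with a median of 1.24, every DEN rat lay above every normal rat in 24, and 3 (Mcm3, Mcm5 and Mcm6) passed the study's thresholds. With 1 rat left out in turn, 30 (without N1) to 35 of the 37 stayed called higher, while Pola1 was newly called without M17 or N3 and Lig1 without N12. Over all genes 19.4% (without M13) to 24.9% (without M17) were called higher in these fits. The calls lost in at least 1 of these fits were those of Orc1, Orc6, Mcm7, Gins2, Prim2, Pole2, Rfc3, Rfc4, Chaf1a, Chaf1b and E2f2.

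**Figure D1:**
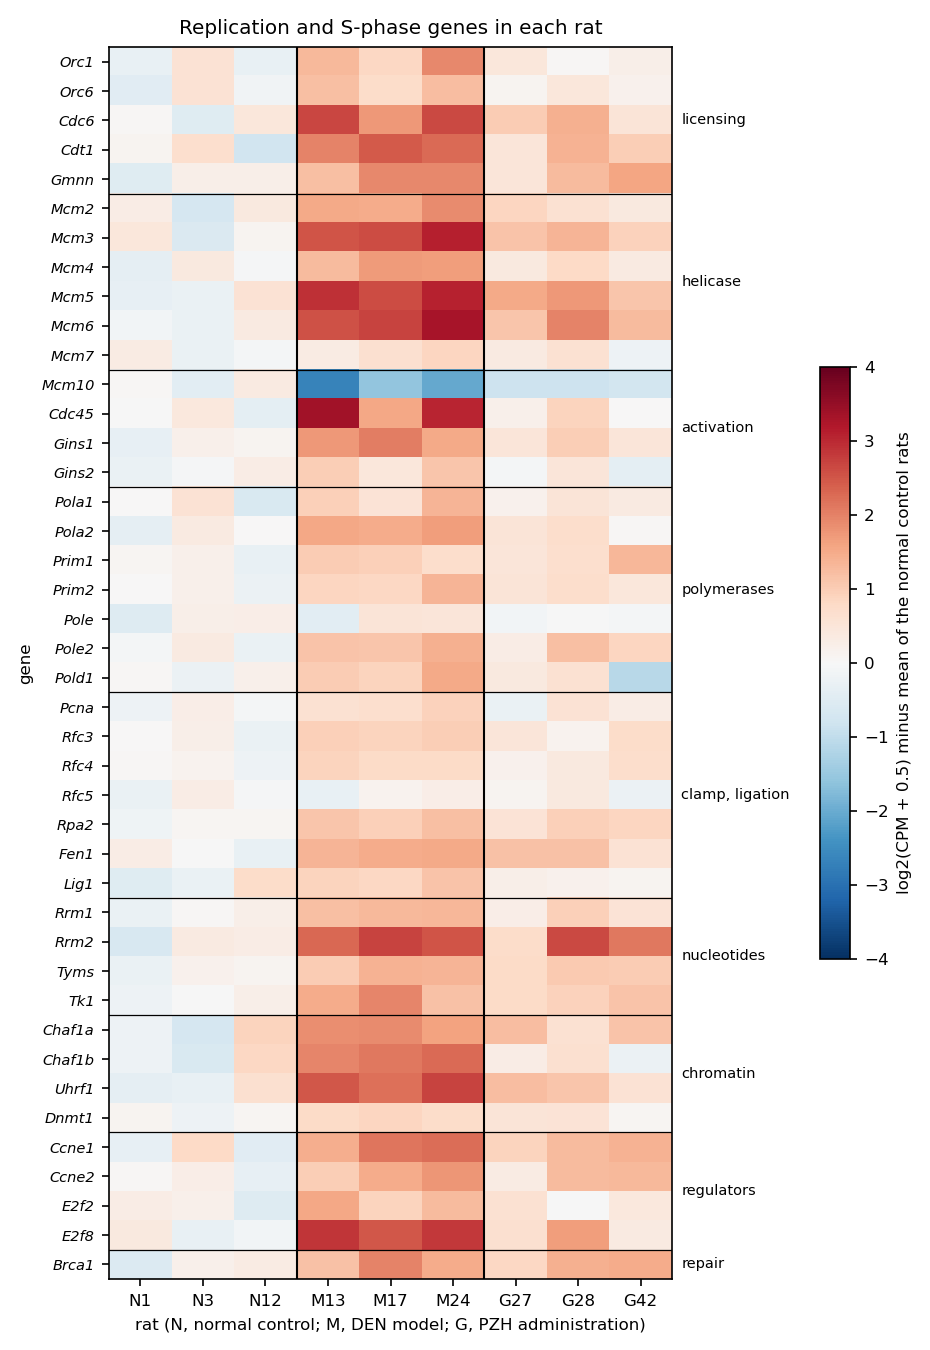
Level of the 42 replication genes (rows, grouped by role) in each of the 9 rats (columns), with colour giving log2(CPM + 0.5) minus its mean over the 3 normal rats. The 3 DEN columns hold the highest values in most rows and the 3 PZH columns lie mostly between, while the row of Mcm10 runs the other way.

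In PZH rats 3 of 5 licensing genes and 5 of 6 helicase genes were lower than in DEN rats, and 0 of 11 genes of the clamp, of ligation and of nucleotide supply were called. Of those 11, Pcna, Rfc3, Rfc4, Rpa2, Fen1, Lig1, Rrm1 and Tk1 still had every PZH rat below every DEN rat. Over all genes 22.5% did, and Rfc5, Rrm2 and Tyms overlapped. With library totals 9 of those 11 were called lower, and the difference between the roles was not tested. Of the 42 genes, 14 fell at an adjusted p under 0.05 over 14272 genes tested, where 10.3% of all genes did, and 1, Mcm10, rose, where 8.72% of all genes did. The 14 were Orc1, Cdc6, Cdt1, Mcm2, Mcm3, Mcm4, Mcm5, Mcm6, Cdc45, Gins1, Pola2, Chaf1b, Uhrf1 and E2f8. Across the 42 the log2 fold change had a median of -0.75, against 0.01 for all genes, and ran from -2.94 for Cdc45 to 1.32 for Mcm10. All PZH rats lay below all DEN rats in 30 of the 42 genes, which held for 22.5% of all genes. At the study's thresholds Cdc45 and Chaf1b were lower, 2 genes beside 1.35% of all, and both are among the genes named next. Orc1, Cdc6, Cdc45, Pole2, Chaf1b and E2f8 passed the filter only through the DEN rats, and of the other 36 genes 9 fell, with a median of -0.64, and 0 passed the study's thresholds.

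Most of these calls needed both M13 and M24. Without M13, or without M24, Mcm3 was the 1 gene still called lower. Over all genes 1.05% were then called lower without M13 and 3.1% without M24. The log2 fold change of Mcm6, a call lost in both fits, was -1.58 without M13 and -1.14 without M24, against -1.42 with all rats. That of Cdc45, also lost in both, was -2.57 and -2.80, against -2.94 with all rats. Of the 14, 12 stayed called without M17 (E2f2 was new there), 8 without G27, 9 without G28 and 4 without G42. Over all genes the shares called lower were 11.7%, 7.99%, 4.51% and 4.02% in the same order. M17, the DEN rat left beside 1 other in each of those fits, had the highest summed hepatocyte genes of the 3, with 65529 CPM against 41050 in M13 and 29374 in M24. The median over the 42 genes of the log2 ratio of CPM + 0.1 to the normal mean lay close together in the 3 DEN rats, 1.41 in M13, 1.57 in M17 and 1.61 in M24, against 0.55 in G27, 0.84 in G28 and 0.65 in G42. M24 was the highest DEN rat in 25 of the 42 genes and G28 the highest PZH rat in 27. With library totals 36 of the 42 genes were lower in PZH rats, where 39.9% of all genes were.

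Between PZH and normal rats Mcm6, a helicase subunit, was the 1 replication gene that passed the test. Of 37 genes tested it was higher in PZH rats (log2 fold change 1.67, SE 0.36, adjusted p = 0.0332), where 4.07% of all 13348 genes tested were. Orc1, Cdc6, Pole2, Chaf1b and E2f8 were too low in both groups to be tested. Across the 37 the median was 0.62 on the log2 scale, against -0.02 for all genes, and in 18 of them every PZH rat lay above every normal rat, which held for 13.6% of all genes. At an unadjusted p under 0.05, 15 of the 37 were higher and 1, Mcm10, lower, beside 11.3% and 7.19% of all genes. Of the 37, 9 (Orc6, Cdt1, Gmnn, Cdc45, Gins1, Rrm2, Chaf1a, Uhrf1 and Ccne1) were among the 14 whose normal rats alone did not pass the filter in the comparison with DEN rats. Their normal rats did not pass it here either, so these genes entered through the PZH rats and the filter favoured higher values there. Of the other 28 genes, 1 was called higher and 11 were higher at an unadjusted p under 0.05. In 14 of these 28 every PZH rat lay above every normal rat, and their median was 0.53. Closest to the adjusted threshold were Tk1 (adjusted p = 0.0543), Mcm5 (0.0587), Tyms (0.0664), Brca1 (0.068), Mcm10 (0.0708) and Rrm2 (0.0983). The call of Mcm6 was lost without any 1 of G28, G42, N1, N3 or N12, each of which left 0 replication genes called. Over all genes 1.19% (without N1) to 2.31% (without N3) were then called higher. Without G27, 6 genes, Brca1, Ccne2, Mcm6, Rrm2, Tk1 and Tyms, were called, beside 5.77% of all genes. The comparisons share rats, so their values stand side by side and are not independent.

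**Figure D2:**
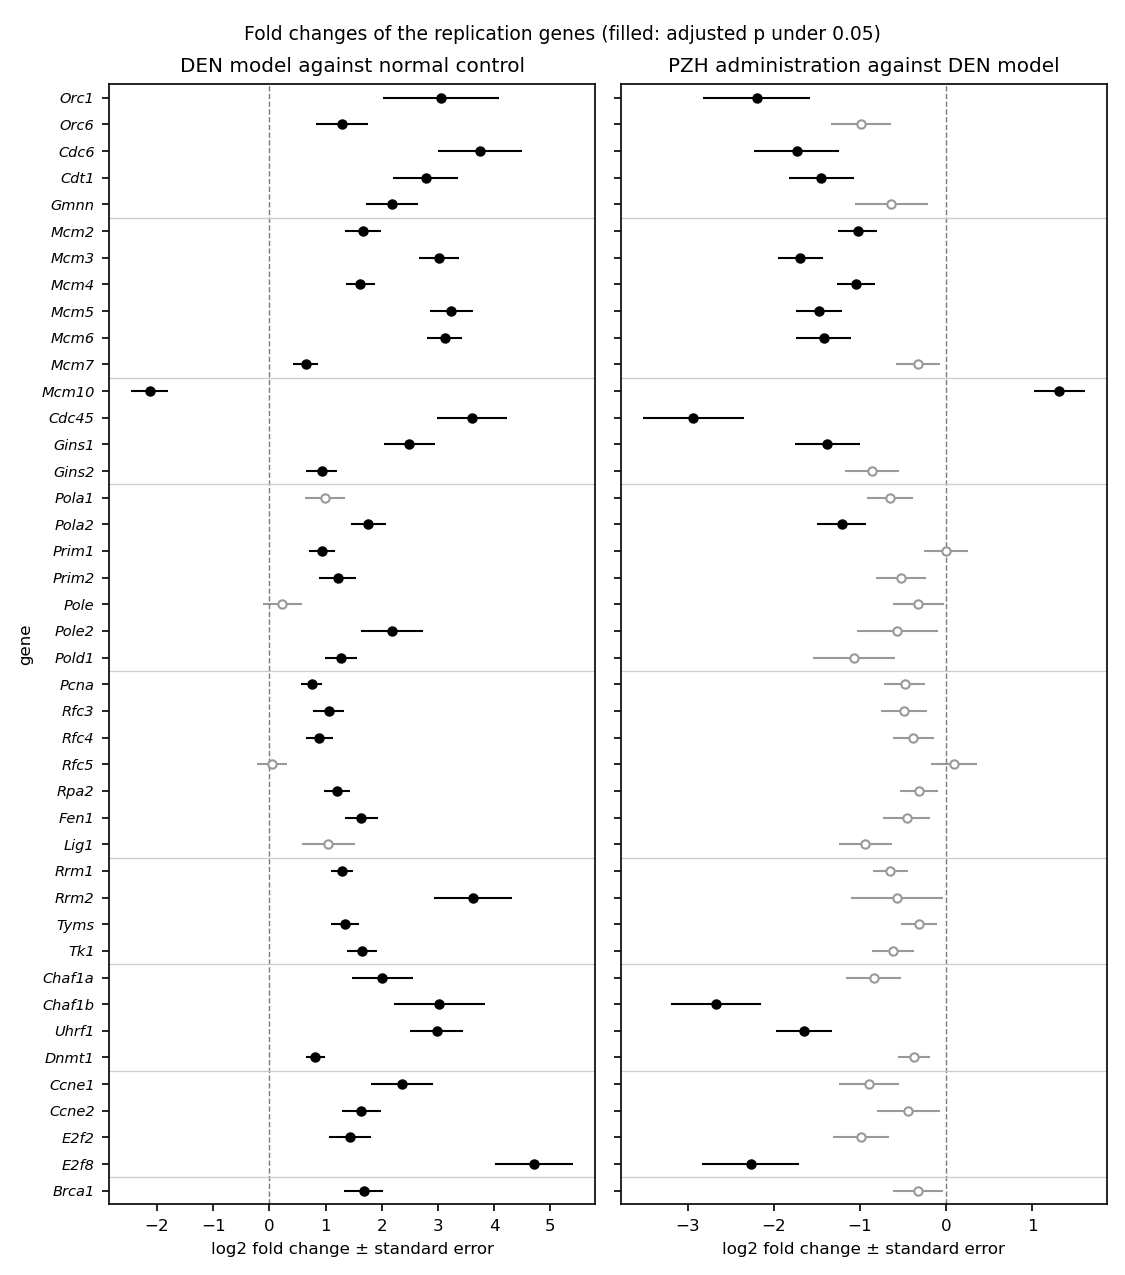
Log2 fold change of each replication gene on the TMM scale (horizontal axis) for DEN against normal in the left panel and PZH against DEN in the right panel, 42 genes each, with bars of 1 standard error from the edgeR fit and filled points where the adjusted p was under 0.05. Most genes are to the right of 0 in the first and to the left in the second, with Mcm10 on the opposite side in each.

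Counts by role are to be read against the 25.3% of all genes called higher in DEN rats and the 10.3% called lower with PZH. The 5 licensing factors were all called higher in DEN rats, but each passed the low-count filter only through those rats, which favoured higher values there. With PZH 3 of the 5 fell (Orc1, Cdc6 and Cdt1), of which Orc1 and Cdc6 had entered the test only through the DEN rats. Cdc6, the loader that brings the helicase to the origin, was at 0.234, 0 and 0.458 CPM in N1, N3 and N12, at 3.95, 1.83 and 3.87 CPM in M13, M17 and M24, and at 0.939, 1.39 and 0.499 CPM in G27, G28 and G42. The groups did not overlap, and the log2 fold change was 3.75 (SE 0.75, adjusted p = 0.00424) for DEN against normal and -1.74 (SE 0.49, adjusted p = 0.0432) for PZH against DEN. Its normal values rest on 3, 0 and 6 counts, so that the first fold is poorly bounded. Orc1, the largest subunit of the origin recognition complex, was at 0 CPM in N1 and N12 and 0.42 in N3, at 1.02, 0.594 and 1.83 CPM in the DEN rats, and at 0.341, 0.139 and 0.214 CPM in the PZH rats. Its fall with PZH (-2.20, SE 0.62, adjusted p = 0.0427) concerned a gene near the limit of detection in the other groups.

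Cdt1, the partner of Cdc6 in loading, was at 0.703, 1.26 and 0.153 CPM in N1, N3 and N12, at 3.91, 5.55 and 4.87 CPM in the DEN rats and at 1.07, 2.44 and 1.71 CPM in the PZH rats. All DEN rats were above all others, with a log2 fold change of 2.78 (adjusted p = 0.00508) against normal and of -1.45 (adjusted p = 0.033) for PZH. Gmnn, the inhibitor that keeps Cdt1 from reloading the helicase in S phase, was at 0.469, 1.09 and 1.07 CPM in normal, 2.59, 4.61 and 4.62 CPM in DEN, and 1.37, 2.71 and 3.49 CPM in PZH rats. The PZH rats overlapped the DEN rats here, and the log2 fold change of -0.64 between them did not pass (adjusted p = 0.319). Orc6, another subunit of the origin complex, was at 0.703, 1.93 and 0.992 CPM in normal, 3.27, 2.23 and 3.33 CPM in DEN and 1.28, 1.74 and 1.35 CPM in PZH rats. It passed for DEN against normal (1.3, adjusted p = 0.0472) and lost that call without any 1 of M13, M17, M24, N1 or N12.

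Among the 6 subunits of the MCM2-7 helicase, which form a ring in equal numbers, 6 of 6 were higher in DEN rats and 5 of 6 lower with PZH, with medians of 2.34 and -1.24. Over all genes the shares were 25.3% and 10.3%. Of the 5 calls with PZH, that of Mcm3 alone was kept without M13 or without M24. Mcm3 was at 2.58, 1.01 and 1.91 CPM in N1, N3 and N12, at 12.2, 13.1 and 18.8 CPM in M13, M17 and M24, and at 4.48, 5.22 and 3.7 CPM in G27, G28 and G42. All 3 groups were apart, and the log2 fold changes were 3.02 (SE 0.35, adjusted p = 0.000432) for DEN against normal and -1.69 (SE 0.26, adjusted p = 0.0101) for PZH against DEN. Mcm5 went from 0.859, 0.923 and 2.06 CPM in the normal rats to 12.3, 9.91 and 14 CPM in the DEN rats and 4.4, 5.22 and 3.2 CPM in the PZH rats. Again no 2 groups overlapped, with log2 fold changes of 3.24 (adjusted p = 0.000425) and -1.47 (adjusted p = 0.014).

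Mcm6 stood at 2.11, 1.85 and 3.05 CPM in N1, N3 and N12, at 15.7, 17.7 and 27.2 CPM in the DEN rats, and at 5.55, 10.5 and 6.27 CPM in the PZH rats. The PZH rats lay between and apart from both, 3.18-fold above normal and 2.68-fold below DEN rats in the fit (adjusted p = 0.0332 and 0.0226). Mcm2 was at 6.48, 3.02 and 6.87 CPM in normal, 15.6, 15.5 and 20.5 CPM in DEN and 9.73, 8.14 and 6.91 CPM in PZH rats, and Mcm4 at 5.08, 8.73 and 6.41, then 16.7, 22.6 and 22.1, then 8.79, 11.8 and 8.62 CPM in the same order. In both genes the DEN rats were above all others, and PZH and normal rats adjoined in Mcm2 and overlapped in Mcm4. The fall with PZH was -1.03 (SE 0.23, adjusted p = 0.0219) for Mcm2 and -1.05 (SE 0.22, adjusted p = 0.0192) for Mcm4.

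Mcm7 moved least of the 6. It was at 16.9, 11.2 and 12.9 CPM in normal rats, 17.3, 21.5 and 24.8 CPM in DEN rats and 17.3, 20.7 and 11.7 CPM in PZH rats, so that the PZH rats spanned the range from normal to DEN. The log2 fold change was 0.65 (SE 0.22, adjusted p = 0.0411) for DEN against normal, a call lost without any 1 of M17, M24, N3 or N12, and -0.33 (SE 0.26, adjusted p = 0.397) for PZH against DEN. The locus of Mcm7 also holds 3 microRNA genes, Mir106b, Mir25 and Mir93, as the file's positions give it.

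**Figure D3:**
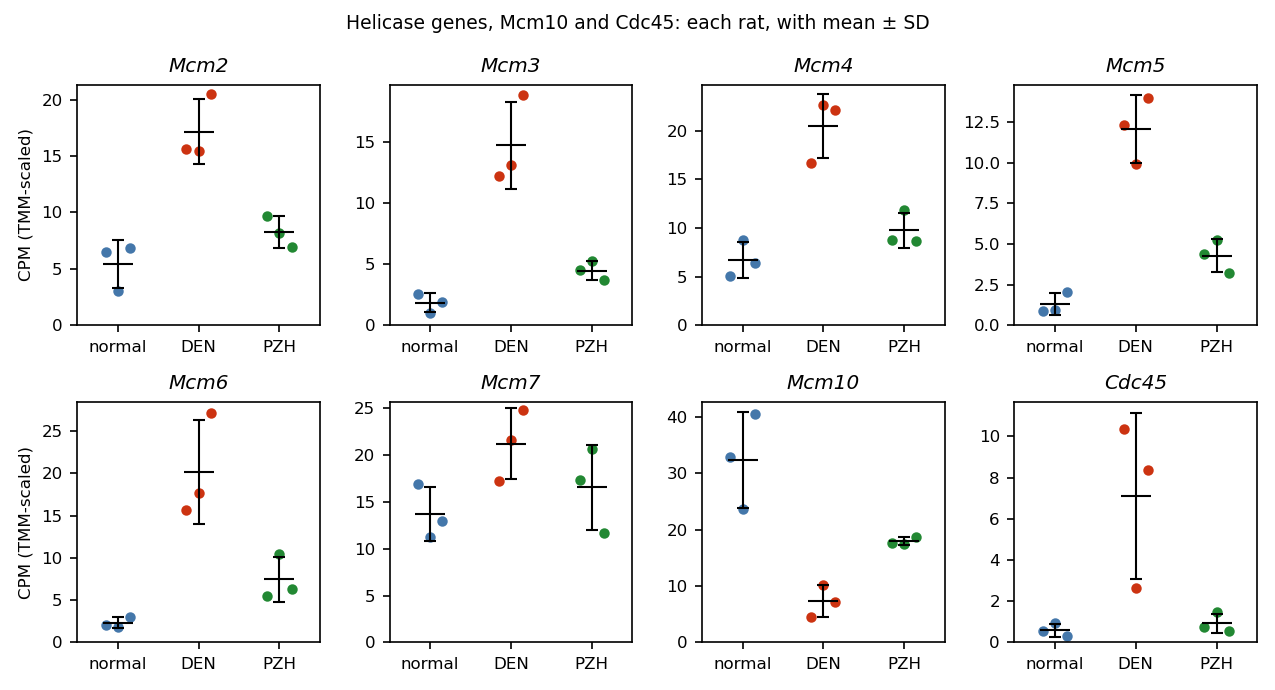
CPM of the 6 MCM2-7 subunits, Mcm10 and Cdc45 by group, with a point for each of the 9 rats and a line with bars for the mean ± SD of 3 rats. For Mcm2 to Mcm6 the DEN rats lie above all normal and PZH rats, Mcm7 overlaps between PZH and both others, and Mcm10 is highest in normal rats.

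Levels of different genes were compared on the deposited FPKM, which divide by transcript length and by library total and therefore show a larger gap between DEN and the other groups than the TMM scale. The 6 helicase genes summed to 8.53 ± 1.53 FPKM in normal, 50.3 ± 14.2 FPKM in DEN and 15.8 ± 3.48 FPKM in PZH rats (SD, n = 3 each). Shares within that sum do not depend on the library scaling. Mcm7 made up 50.1% ± 5.51 of the sum in normal rats, 24.4% ± 1.43 in DEN rats and 38.2% ± 3.27 in PZH rats (SD, n = 3 each). Its level was 6.63 ± 1.47 times the median of the other 5 subunits in normal rats, 1.61 ± 0.196 times in DEN rats and 3.07 ± 0.758 times in PZH rats. No 2 groups overlapped in the share of Mcm7. The share of Mcm3 moved the other way, 5.54% ± 1.77 in normal, 14.3% ± 0.875 in DEN and 8.86% ± 0.411 in PZH rats, as did that of Mcm6, 7.30% ± 1.65, 19.5% ± 2.21 and 14.6% ± 3.15. The share of Mcm2 was 14.9%, 15.1% and 14.9%. These shares are a description and were not tested.

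**Figure D4:**
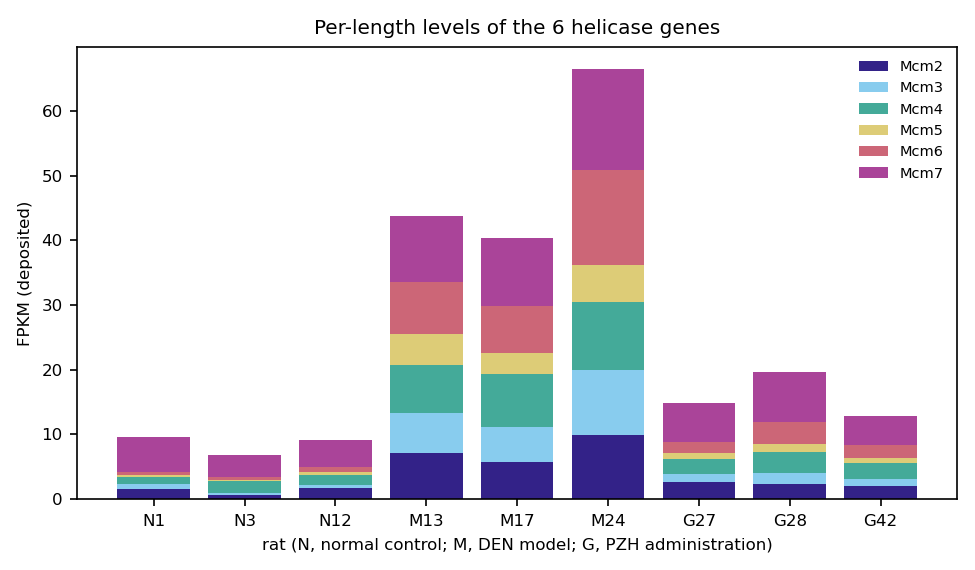
Stacked deposited FPKM of the 6 MCM2-7 subunits (vertical axis) in each of the 9 rats, with a colour for each subunit. The stacks reach 6.79 to 9.66 FPKM in normal, 40.4 to 66.6 FPKM in DEN and 12.8 to 19.6 FPKM in PZH rats, and the Mcm7 block takes 45.3% to 56.1%, 23.5% to 26.0% and 34.4% to 40.6% of them.

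Of the 4 genes that activate the helicase, Cdc45, Gins1 and Gins2 were higher in DEN rats and Mcm10 lower, and Cdc45 and Gins1 are among those that the DEN rats alone brought through the filter. Cdc45, the factor that joins MCM2-7 and GINS in the active helicase, was at 0.547, 0.923 and 0.305 CPM in N1, N3 and N12, at 10.4, 2.62 and 8.37 CPM in M13, M17 and M24, and at 0.725, 1.46 and 0.57 CPM in G27, G28 and G42. The DEN rats were above all others but spread widely, with M17 well below the other two. The fitted log2 fold changes were 3.60 (SE 0.62, adjusted p = 0.00227) for DEN against normal and -2.94 (SE 0.59, adjusted p = 0.0169) for PZH against DEN, the steepest fall of the 42 genes. The latter passed without M17, G27 or G28 and not without M13 (adjusted p = 0.0679), M24 (0.0533) or G42 (0.0549). Cdc45 overlaps Cldn5 in the file's positions, a gene with a mean of 28.3 counts.

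Gins1, a subunit of GINS, was at 0.312, 0.671 and 0.611 CPM in normal, 2.89, 3.67 and 2.41 CPM in DEN, and 0.939, 1.53 and 0.926 CPM in PZH rats, and no 2 groups overlapped. It was higher in DEN than normal rats (2.49, adjusted p = 0.00291) and lower with PZH (-1.38, adjusted p = 0.0404). Gins2, its partner, rose less in DEN rats (0.93, adjusted p = 0.0249), and the PZH difference of -0.86 did not pass (adjusted p = 0.0884).

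Mcm10, a scaffold that binds the helicase as it is activated, was the exception to the direction of the group. It was at 32.9, 23.6 and 40.6 CPM in N1, N3 and N12, at 4.5, 10.3 and 7.24 CPM in M13, M17 and M24, and at 17.7, 17.5 and 18.7 CPM in G27, G28 and G42. The 3 groups were apart, in the order normal, PZH, DEN. The log2 fold change was -2.13 (SE 0.33, adjusted p = 0.00143) for DEN against normal, 1.32 (SE 0.30, adjusted p = 0.0229) for PZH against DEN and -0.84 (SE 0.23, adjusted p = 0.0708) for PZH against normal. The fall in DEN rats kept its direction and its call with each rat left out and on library totals (-1.31, adjusted p = 0.0055). The rise with PZH lost its call without M13, M24, G28 or G42 (adjusted p = 0.0594 to 0.0759) and on library totals (0.68, adjusted p = 0.0737).

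By length-scaled level Mcm10 was second of the 42 genes in normal liver, at 5.01 ± 1.51 FPKM, after Pcna at 19.2 ± 2.37 FPKM, and it ranked 33 in DEN rats (2.02 ± 0.607 FPKM) and 8 in PZH rats (3.24 ± 0.237 FPKM; SD, n = 3 each). The gene lies on chromosome 17 from 77224112 to 77246478 in the coordinates of the file, whose build is not given in the sources used here, and no other gene of the file overlaps it. The nearest were Ucma, 5622 bases away, and Optn, 5723 bases away. Which transcripts of the locus carried the reads was not tested.

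Of the 7 genes of priming and DNA synthesis 5 were higher in DEN rats, Pole2 among them after passing the filter only through those rats, and 1 of 7 fell with PZH. Over all genes 25.3% were called higher in DEN rats and 10.3% lower with PZH, so that the 1 of 7 is near the share of all genes. Pola2, the regulatory subunit of polymerase alpha, was at 1.48, 2.77 and 2.06 CPM in normal, 6.97, 6.64 and 7.66 CPM in DEN and 3.16, 3.69 and 2.14 CPM in PZH rats. The DEN rats were above all others, at log2 fold changes of 1.76 (adjusted p = 0.00269) and -1.21 (adjusted p = 0.0255), though the gene overlaps Cdc42ep2, with a mean of 51.1 counts. Prim1, the catalytic primase subunit, was at 7.11, 7.8 and 5.27 CPM in normal, 13.8, 13.3 and 11.2 CPM in DEN and 9.52, 11 and 17.4 CPM in PZH rats. It rose in DEN rats (0.94, adjusted p = 0.0102), and was not called between PZH and DEN rats, with a log2 fold change of 0.00 (SE 0.26, adjusted p = 0.998). G27 and G28 lay below all 3 DEN rats and G42 above all other 8 rats, and the log2 fold change was -0.28 without G42 and -0.65 with library totals.

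Pole, the catalytic subunit of the leading-strand polymerase, was at 4.61, 8.14 and 8.4 CPM in normal, 5.01, 9.91 and 9.74 CPM in DEN, and 6.32, 6.68 and 6.41 CPM in PZH rats, overlapping in all groups (0.23 for DEN against normal, adjusted p = 0.615). Its accessory subunit Pole2 was at 0.234, 0.504 and 0.153 CPM in normal, 1.23, 1.19 and 1.58 CPM in DEN, and 0.469, 1.32 and 0.926 CPM in PZH rats. Pole2 was higher in DEN rats (2.18, adjusted p = 0.0124), and with PZH G28 reached the DEN range (-0.56, adjusted p = 0.433). The other 3 genes were Prim2 (1.22) and Pold1 (1.27), both called higher in DEN rats, and Pola1 (0.99, adjusted p = 0.0506), which was not, and none of them passed for PZH against DEN.

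Clamp, clamp loader, single-strand binding and ligation genes rose in 5 of 7 cases, with a median of 1.05, and 0 of 7 were called with PZH, with a median of -0.46. Of the 7, Lig1 passed before adjustment and was called by DESeq2, and with library totals in place of TMM 6 were called lower, all but Rfc5, as were 39.9% of all genes. Pcna, the sliding clamp and the most abundant of the 42 mRNAs per length in each group, was at 25, 34.6 and 27.2 CPM in normal, 44.2, 45.8 and 55.2 CPM in DEN and 23.6, 43.5 and 35.6 CPM in PZH rats. It was 1.69-fold higher in DEN than normal rats (adjusted p = 0.0116), while the PZH rats spanned from below normal to just under the lowest DEN rat (-0.48, adjusted p = 0.188). Fen1, the flap endonuclease of Okazaki fragments, rose most of this group, from 2.81, 2.18 and 1.68 CPM in normal to 6.33, 7.03 and 7.12 CPM in DEN, with 5.55, 5.57 and 3.49 CPM in PZH rats (1.64, adjusted p = 0.00267, and -0.46, adjusted p = 0.266).

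Rfc5, a subunit of the clamp loader, did not separate the groups, at 5.78, 8.64 and 6.79 CPM in normal, 5.61, 7.68 and 8.49 CPM in DEN and 7.51, 9.4 and 5.91 CPM in PZH rats (0.05 for DEN against normal, adjusted p = 0.891). The other loader genes Rfc3 (1.06) and Rfc4 (0.89) and the single-strand binding subunit Rpa2 (1.20) were called higher in DEN rats. Lig1, the ligase that seals Okazaki fragments, was at 0.937, 1.17 and 2.82 CPM in normal, 3.23, 3.02 and 3.95 CPM in DEN, and 1.83, 1.74 and 1.64 CPM in PZH rats. All DEN rats were above all others, but N12 was close to them, and neither difference passed (1.05, adjusted p = 0.0952, and -0.94, adjusted p = 0.0675).

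The 4 genes of deoxynucleotide supply were all higher in DEN rats, Rrm2 after passing the filter only through them, and 0 of 4 were called with PZH, with a median of -0.59, although Rrm1 and Tk1 passed before adjustment, Rrm1 was called by DESeq2, and Rrm1, Tk1 and Tyms were called lower with library totals. Rrm2, the S-phase subunit of ribonucleotide reductase, was at 0, 0.504 and 0.458 CPM in N1, N3 and N12, at 3.36, 4.61 and 4 CPM in the DEN rats, and at 0.811, 4.38 and 2.85 CPM in the PZH rats. The rise in DEN rats was steep (3.63, SE 0.70, adjusted p = 0.00366) from 0 to 6 counts in the normal rats, and 1 PZH rat, G28, was within the DEN range. Rrm1, the large subunit, was at 12.8, 16 and 18.5 CPM in normal, 36.3, 39.1 and 39.9 CPM in DEN and 18.8, 30.6 and 23.1 CPM in PZH rats. No 2 groups overlapped, the rise was 2.46-fold (adjusted p = 0.00114), and the fall with PZH of -0.65 missed the threshold (adjusted p = 0.0583).

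Tyms, which makes thymidylate, was at 3.9, 5.46 and 5.19 CPM in normal, 10.2, 13.5 and 13.2 CPM in DEN and 8.58, 10.4 and 10.2 CPM in PZH rats. The PZH rats stayed above the normal ones and reached M13, the lowest DEN rat (-0.31 against DEN, adjusted p = 0.321). Tk1, the salvage kinase of thymidine, rose to a like degree (1.65, adjusted p = 0.00184) and was at 10.8 to 13.9 CPM in PZH rats, below the 14.2 CPM of M24.

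Of the 4 genes of chromatin assembly and methylation, Dnmt1 was called higher in DEN rats independently of the low-count filter, while Chaf1a, Chaf1b and Uhrf1, also called, had passed it only through the DEN rats. Chaf1b and Uhrf1 fell with PZH, Chaf1b again with a filter passed through the DEN rats alone. Chaf1b, a subunit of the assembly factor that deposits histones behind the fork, was at 0.156, 0 and 0.84 CPM in N1, N3 and N12, at 2.42, 2.77 and 3.16 CPM in M13, M17 and M24, and at 0.427, 0.696 and 0.142 CPM in G27, G28 and G42. The PZH rats were within the normal range. The fit gave 3.03 (SE 0.80, adjusted p = 0.015) for DEN against normal and -2.67 (SE 0.52, adjusted p = 0.0163) for PZH against DEN. Its partner Chaf1a rose in DEN rats (2.01, adjusted p = 0.0162) and was not called with PZH (-0.84, adjusted p = 0.0996).

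Uhrf1, which brings the maintenance methyltransferase to newly made DNA, was at 0.469, 0.504 and 1.45 CPM in normal, 6.46, 5.2 and 7.53 CPM in DEN and 2.43, 2.16 and 1.35 CPM in PZH rats. It was 7.89-fold higher in DEN than normal rats (adjusted p = 0.00159) and 3.14-fold lower with PZH than in DEN rats (adjusted p = 0.0165). Dnmt1, that methyltransferase, moved far less, from 18.7, 14.9 and 18.2 CPM in normal to 29.8, 31.7 and 28.6 CPM in DEN and 24.9, 25.4 and 18.1 CPM in PZH rats. Its DEN rats were above all others (0.82, adjusted p = 0.00482), and the PZH difference of -0.37 did not pass (adjusted p = 0.204).

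All 4 regulators of the G1/S boundary were called higher in DEN rats, E2f2 and Ccne2 independently of the low-count filter and Ccne1 and E2f8 after passing it only through the DEN rats. E2f8 fell with PZH, where the same limit holds for it. E2f8, an atypical E2F that represses the programme late in S phase, was at 0.312, 0 and 0.0763 CPM in N1, N3 and N12, at 3.95, 2.97 and 3.83 CPM in the DEN rats, and at 0.469, 1.46 and 0.285 CPM in the PZH rats. Its rise was the steepest of the 42 (4.72, SE 0.69, adjusted p = 0.00112) and rests on 4, 0 and 1 counts in the normal rats, and it fell by 2.27 on the log2 scale with PZH (SE 0.57, adjusted p = 0.0297). E2f2, an activating E2F, was at 2.5, 2.35 and 1.22 CPM in normal, 6.67, 4.01 and 5.45 CPM in DEN and 3.2, 1.95 and 2.78 CPM in PZH rats. The DEN rats were above all others (1.43, adjusted p = 0.014), and the fall of -0.99 with PZH did not pass (adjusted p = 0.0683).

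Ccne1 and Ccne2, the E cyclins that drive Cdk2 at S-phase entry, rose in DEN rats by 2.36 (adjusted p = 0.00874) and 1.64 (adjusted p = 0.00536) on the log2 scale. Ccne1 was at 0.547, 1.76 and 0.458 CPM in normal, 3.1, 5.25 and 5.7 CPM in DEN and 1.92, 2.64 and 2.92 CPM in PZH rats, in 3 groups that did not overlap. Ccne2 was at 2.34, 2.77 and 1.68 CPM in normal, 4.84, 7.18 and 8.87 CPM in DEN and 2.9, 6.12 and 6.27 CPM in PZH rats, where G28 and G42 were above M13. Ccne2 overlaps Ints8, with a mean of 597 counts, in the file's positions. Brca1, which protects and repairs stalled forks, was at 2.34, 4.28 and 4.73 CPM in normal, 8.92, 16 and 11.2 CPM in DEN and 6.87, 10.6 and 11 CPM in PZH rats, higher in DEN rats (1.68, adjusted p = 0.0049) and not called with PZH (-0.33, adjusted p = 0.456).

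Related genes that are not among the 43 were counted by list, to be read against the 25.3% of all genes called higher and 20.5% called lower in DEN rats, and the 8.72% and 10.3% with PZH. Of 32 further replication factors 12 were higher and 4 lower in DEN rats, but 9 had passed the low-count filter only through those rats, and of the other 23 genes 5 were higher and 4 lower, with a median of -0.0012. The log2 fold change ran from -1.83 for Rnaseh2c to 4.11 for Ticrr, one of the 9. With PZH Pole4 and Pold4, small polymerase subunits, rose by 0.62 (adjusted p = 0.0315) and 0.76 (adjusted p = 0.0215), and Ticrr, the factor that starts helicase activation, and Wdhd1 fell by 1.80 (adjusted p = 0.0314) and 1.23 (adjusted p = 0.0268). Ticrr passed the filter only through the DEN rats in the comparison with PZH rats as well, so that the filter favoured this direction. Of 16 further G1/S regulators 6 were higher in DEN rats, Cdk2 and the Cdk inhibitor Cdkn1a (-1.58, adjusted p = 0.0078) were lower, and Skp2 and Ccna2 fell with PZH. Without the 3 that entered through the DEN rats (Skp2, Ccna2 and E2f7), 3 of 13 were higher. Ccna2, the S-phase cyclin, was highest (4.80, adjusted p = 0.000274) and fell by 1.57 with PZH (adjusted p = 0.0479). Of 12 replication checkpoint genes Atr and Clspn were higher in DEN rats, and Clspn, the adaptor of the fork checkpoint, which the DEN rats alone brought through the filter, was the 1 that fell with PZH (-1.71, adjusted p = 0.0268). Of 13 homologous recombination and Fanconi genes 12 were higher in DEN rats, 8 of which had entered the test only through those rats, and 4 of the other 5 were higher. Rad54l, Fanca and Exo1 fell with PZH, of which Rad54l and Exo1 had that limit there too. In 13 further nucleotide synthesis enzymes the log2 fold change in DEN rats ran from -1.59 for the folate enzyme Shmt1 to 2.76 for the deaminase Dctd (a gene that passed the filter only through those rats) around a median of -0.0033, and Samhd1, which degrades deoxynucleotides, fell with PZH (-0.87, adjusted p = 0.0222).

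Mitotic markers were counted in the same comparisons. Of 9 tested, 7 were higher in DEN than normal rats, 3 (Mki67, Plk1 and Aurkb) fell with PZH, and 7 were higher in PZH than normal rats, where 4.07% of all genes were. The normal rats did not pass the filter on their own for 6 of the 9 (Aurkb, Birc5, Bub1, Ccnb1, Cdk1 and Plk1). For these the filter favoured values above normal in both comparisons against normal rats. Of the other 3 (Mki67, Top2a and Aurka), 2 were higher than normal in DEN and in PZH rats. Mki67, the antigen of cycling cells, was higher by 3.04 on the log2 scale in PZH than normal rats (SE 0.39, adjusted p = 0.00502) and Top2a, the mitotic topoisomerase, by 3.09 (adjusted p = 0.00955). The difference between the mitotic and the replication genes was not itself tested.

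Bile duct, stellate, lymphocyte and blood precursor markers were summed highest in DEN rats, like most replication genes, while macrophage and endothelial sums overlapped between normal and DEN rats. Within the endothelial list 2 of 5 were called higher in DEN rats (Vwf by 2.48, adjusted p = 0.000681, and Cdh5) and 2 lower (Kdr at -1.15, adjusted p = 0.0151, and Lyve1), and 2 of 6 macrophage markers were called lower (Marco at -2.72, adjusted p = 0.0196, and Clec4f). The median of the 6 macrophage markers in DEN rats was 0.20, and none was called higher. With PZH 3 of the 6 were called lower, with a median of -0.61 and Csf1r lowest (-0.99, adjusted p = 0.032). Of the 5 endothelial markers 1 was called lower with PZH, at a median of 0.47 for the list. None of either list was called higher with PZH. The 6 bile duct and progenitor genes summed to 13.4 to 21.1 CPM in normal, 235 to 756 CPM in DEN and 80.9 to 108 CPM in PZH rats, and 6 of 6 were called higher in DEN than normal, lower in PZH than DEN and higher in PZH than normal rats. The normal rats did not pass the filter on their own for 4 of these 6 markers (Cftr, Krt19, Krt7 and Sox9), so that it favoured values above normal there. Of those 6, 1 was at 0 in N1 and 1 in N3, and none in the other rats. The 6 stellate and myofibroblast genes summed to 172 to 254, 859 to 2575 and 490 to 591 CPM in the same order, with none at 0. The 7 lymphocyte genes summed to 24.0 to 34.3, 65.1 to 145 and 36.3 to 48.2 CPM, with at most 2 of them at 0 in a rat. The 7 erythroid and granulocyte precursor genes summed to 3.05 to 7.86, 9.03 to 45.0 and 1.24 to 3.06 CPM, and 4 to 6 of them were at 0 in normal, 0 or 1 in DEN and 5 in PZH rats. Macrophage genes, 6 in number, summed to 428 to 836, 396 to 531 and 223 to 516 CPM and 5 endothelial genes to 335 to 411, 219 to 415 and 295 to 414 CPM, with none at 0. Their part in the levels of the replication genes was not tested.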

How the data were processed

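A single table of genes by rats was deposited. Its count columns are the authors' whole-number reads per gene and rat, not normalized, and the deposited FPKM columns divide them by transcript length and library total. Submitters' processing notes name fastp, HISAT2 2.1.0, StringTie 1.3.3b and edgeR 3.30.3, while the tool that counted reads and the build of the genome are not given in the sources used here. Columns with the authors' own comparisons (group means, log2 fold changes, P, Q and direction) were not used.

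Counts were filtered with filterByExpr, scaled with TMM and tested with the quasi-likelihood test of edgeR 4.0.16 in R 4.3.3 on 6 rats per comparison, with no covariate, with Benjamini-Hochberg adjustment over all genes tested and a threshold of 0.05. A second call used the thresholds of the study's methods, a log2 fold change beyond 2 in size and P under 0.001. The fit was tested on simulated counts first. CPM used TMM-scaled totals. SDs are over 3 rats. Depth limits precision for genes near 3 counts. Alternatives were DESeq2 1.42.0, library totals, no low-count filter, at least 10 counts in every rat, all 9 rats in one fit, limma 3.58.1 on log2(FPKM + 0.1) or log2(FPKM + 1), an absolute log2 fold change above 1, leaving out each rat and, added after seeing the data, members that overlap no other gene. By rule, values of all rats are given for the helicase genes and for the genes with the largest and smallest fold change of each role in each comparison, and other genes of a list are named where they had the largest or smallest fold change. Genes of a list counted at 5 or fewer, and Pcna, Cdt1, Gins2 and Brca1 in full, were named after their values were seen. The genes and lists were chosen with earlier results of these data known. 1 gene of the nucleotide synthesis list is not reported here.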

Additional observations from a re-analysis of the deposited data

How the results depend on the processing

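For DEN against normal, 30 to 36 of 42 genes were called higher with 1 rat left out, and 35 to 41 under the other settings that kept all 42 and the same threshold, and 31 with a log2 fold change above 1 required as well. The share of all genes called moved with the setting too. With library totals 41 of the 42 were called higher beside 57% of all genes, and without a low-count filter 35 beside 18.6%, against 25.3% of all genes in the main fit. At the study's thresholds the 9 became 14 with DESeq2, 28 with library totals, 3 with at least 10 counts in every rat, 26 on log2(FPKM + 0.1), 5 on log2(FPKM + 1) and 5 to 7 with a rat left out. For PZH against DEN the 14 became 36 with library totals, 35 on log2(FPKM + 0.1), 37 on log2(FPKM + 1) and 1 (without M13 or M24) to 13 with a rat left out, against 17 with DESeq2 and 10 to 12 with other filters or all 9 rats. The 2 at the study's thresholds became 9, 0 (at least 10 counts), 1 (all 9 rats), 6 and 0 in the order library totals, filter, joint fit, FPKM + 0.1 and FPKM + 1, and 0 to 1 with a rat left out. For PZH against normal the 1 became 7 with DESeq2, 5 with library totals, 5 with all 9 rats, 5 on log2(FPKM + 0.1), 7 on log2(FPKM + 1) and 0 to 6 with a rat left out. In the main fit of this comparison 4.07% of all genes were called higher. The share of all genes is not given here for every setting, so these counts alone do not set the replication genes apart from all genes. Library totals and FPKM leave the TMM shift between groups in place. The cause of the other changes was not tested. Directions changed only in genes that were not called. For DEN against normal these were Rfc5 (-0.069 without M24, -0.094 without N1, range with 1 rat left out -0.094 to 0.22) and Pole (-0.015 without N1, range -0.015 to 0.49). For PZH against DEN, Prim1 was -0.65 with library totals, -0.0043 without a filter, -0.032 with at least 10 counts, -0.020 with all 9 rats, -0.69 and -0.62 on FPKM + 0.1 and + 1, -0.28 without G42 and -0.084 without M24 (range -0.28 to 0.17), and Rfc5 was -0.58 with library totals, -0.56 and -0.45 on FPKM + 0.1 and + 1, and negative without G28 or M13 (range -0.073 to 0.26). For PZH against normal, Pole was 0.12 with library totals, 0.14 and 0.059 on FPKM + 0.1 and + 1 and -0.38 to 0.013 with 1 rat left out. In the same comparison and with 1 rat left out, Pold1 ran from -0.18 (without G28) to 0.55, Gins2 from -0.25 (without G28) to 0.22, Rfc5 from -0.067 (without G28) to 0.30, Orc6 from -0.037 (without N1) to 0.79 and Lig1 from -0.21 (without N1) to 0.70. Among the members that overlap no other gene, 31 of 34, 12 of 34 and 1 of 29 were called in the 3 comparisons. No paired analysis was possible because the rat numbers are not shared between groups. Counting error weighed most on Orc1, Cdc6, Pole2, Chaf1b, Rrm2 and E2f8 in normal rats, with 5 to 13 counts over the 3 rats.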
